A study of Homo sapiens with 6 samples.

Results

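The genes described here are 9 genes of the NRF2 antioxidant response, chosen by name from the 58735 genes of the deposited table: NFE2L2, KEAP1, NQO1, GCLM, GCLC, TXNRD1, SRXN1, TXN and PRDX1. Their transcripts were measured by RNA sequencing in 6 libraries from cells labelled BxPC-3, a line established from a human pancreatic adenocarcinoma. DMSO, the solvent, had been given for 3 libraries, and GSK3326595, which inhibits the arginine methyltransferase PRMT5, for the other 3, at a dose and for a time that the sources used here do not give. The title of the series concerns methylation of the Hippo kinase MST2 by PRMT5, and its design text speaks of a knockdown, whereas every library is labelled as drug treatment, which was followed here. Separate cultures are not stated for the libraries of a group; the p-values thus describe the spread between these libraries only, and it may be technical.

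NRF2, the protein encoded by NFE2L2, is a transcription factor that is made continuously and held at a low level because KEAP1, an adaptor of a CUL3 ubiquitin ligase, delivers it for degradation. Oxidants and electrophiles modify cysteines of KEAP1, NRF2 then accumulates, pairs with small Maf proteins and binds antioxidant response elements near its target genes. NRF2 is therefore controlled largely as a protein, which transcript levels do not show. In pancreatic cancer the pathway is known for supporting redox balance downstream of oncogenic signalling.

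Promoter sequences were searched for the letters of that element. RefSeq (GRCh38.p14) gave 11 windows for 8 of the 9 genes, each from 250 bases before to 50 after an annotated start; PRDX1 had no entry. The broad core TGANNNNGC, on either strand, stood in 6 of the 11 windows and in 41.8% of all 35116 windows. The narrower TGACNNNGC, a subset of the core, stood in 4 of the 11 and in 13.3% of all. Those 4 windows belonged to GCLM, KEAP1 (the second of its starts) and both starts of TXNRD1, and 1 stretch of each is shown because these letters are what the windows share; capitals mark the match, which lies on the opposite strand where it begins with GC.
GCLM, chr1:93909434-93909486, minus strand: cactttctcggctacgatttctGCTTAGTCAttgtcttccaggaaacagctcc
KEAP1, chr19:10502772-10502824, minus strand: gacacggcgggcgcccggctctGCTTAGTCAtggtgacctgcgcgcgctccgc
TXNRD1, first start, chr12:104215658-104215710, plus strand: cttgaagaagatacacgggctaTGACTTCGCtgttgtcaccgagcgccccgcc
TXNRD1, second start, chr12:104286908-104286960, plus strand: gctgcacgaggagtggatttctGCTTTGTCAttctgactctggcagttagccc
The strictest form searched, TGACTCAGC, which contains the AP-1 letters TGACTCA, stood in 0 of the 11 windows and in 0.561% of all. Among the other NRF2 targets described further on it stood in the windows of 3 genes, ME1, PIR and GSTP1. The stretch of GSTP1 is given for comparison.
GSTP1, chr11:67583724-67583776, plus strand: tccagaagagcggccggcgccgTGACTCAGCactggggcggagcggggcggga
A match describes letters only, and a window without one says nothing about NRF2 at that gene, since elements can lie outside these 300 bases.

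One library bears on all results and is described first. Inhibitor replicate 2 correlated with the other inhibitor libraries at r = 0.904 to 0.906 over the 13578 genes tested (genes are no independent replicates), whereas the other same-group pairs reached r = 0.980 to 0.983. The mitochondrial genome supplied 11.3% of its reads, against 4.703% to 6.03% elsewhere. Relative to inhibitor replicates 1 and 3 its log2 values were lower for short and for GC-rich genes: the median deviation over tested protein-coding genes was −0.94 for the 110 shortest and 0.33 for the 2249 longest, and 0.39 at a GC content of 40% or less (1696 genes) against −0.65 above 65% (418 genes). Library totals, as reads recovered from the FPKM values, ran from 14087260 to 15724750. Results are therefore given with and without this library.

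The label was checked against markers. Of 11 markers of pancreatic ductal epithelium, KRT19, CEACAM6 and PDX1 had 0 reads in all 6 libraries, and CDH1 and EPCAM stood at 0.118 ± 0.0273 and 0.211 ± 0.0945 FPKM in DMSO (SD, n = 3), while KRT7, KRT8 and KRT18 were abundant (summed markers 676 to 756 FPKM in DMSO and 791 to 1043 FPKM with the inhibitor). CDKN2A, a gene known to be deleted in BxPC-3, stood at 107 ± 11.2 FPKM and SMAD4, likewise known as deleted, at 3.64 ± 0.283 FPKM in DMSO (SD, n = 3). These values go against the label, and the cells are called here the libraries labelled BxPC-3. Of 6 fibroblast markers COL1A2 and LUM had 0 reads, DCN and COL3A1 were near 0, and only COL1A1 and PDGFRB averaged 1 FPKM or more; their sum went from 5.09 to 5.68 FPKM in DMSO to 10.3 to 15.5 FPKM with the inhibitor. Endothelial markers summed to 1.09 to 1.46 FPKM in DMSO and 0.226 to 0.823 FPKM with the inhibitor, with CDH5 the most abundant of the 3 in every library. The sums for 5 acinar, 4 endocrine and 4 leukocyte markers were at most 0.533 FPKM in any library. In bulk RNA, fewer cells of a type and less RNA per cell cannot be told apart. PRMT5 transcript was lower with the inhibitor in every library, 12.1 to 13.4 FPKM against 23.2 to 26.2 FPKM (log2 fold change −0.90, limma adjusted p = 0.00493).

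Of the 9 genes, 1 fell and none rose with the inhibitor. FPKM counts fragments per kilobase of the listed gene length, so comparisons of levels between genes rest on those lengths. Differences are log2 fold changes of FPKM + 1, tested with limma at a Benjamini-Hochberg adjusted p under 0.05. The test covered the 13578 genes that reached 1 FPKM in 3 libraries or more. All 9 genes passed that filter. Over all genes tested 17.2% were called, 7.18% higher and 10% lower, so 1 lower call among 9 genes was close to the share among all genes. The estimate lay below 0 for 8 of the 9 genes, against 54.7% of all genes tested, and the median of the 9 was −0.23 against −0.05 for all. In 4 of the 9 (KEAP1, NQO1, TXNRD1 and TXN) all inhibitor libraries lay below all DMSO libraries, which held for 26.7% of all genes tested. None of the 9 had all inhibitor libraries above DMSO, which held for 19.2% of all genes.

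**Figure D1:**
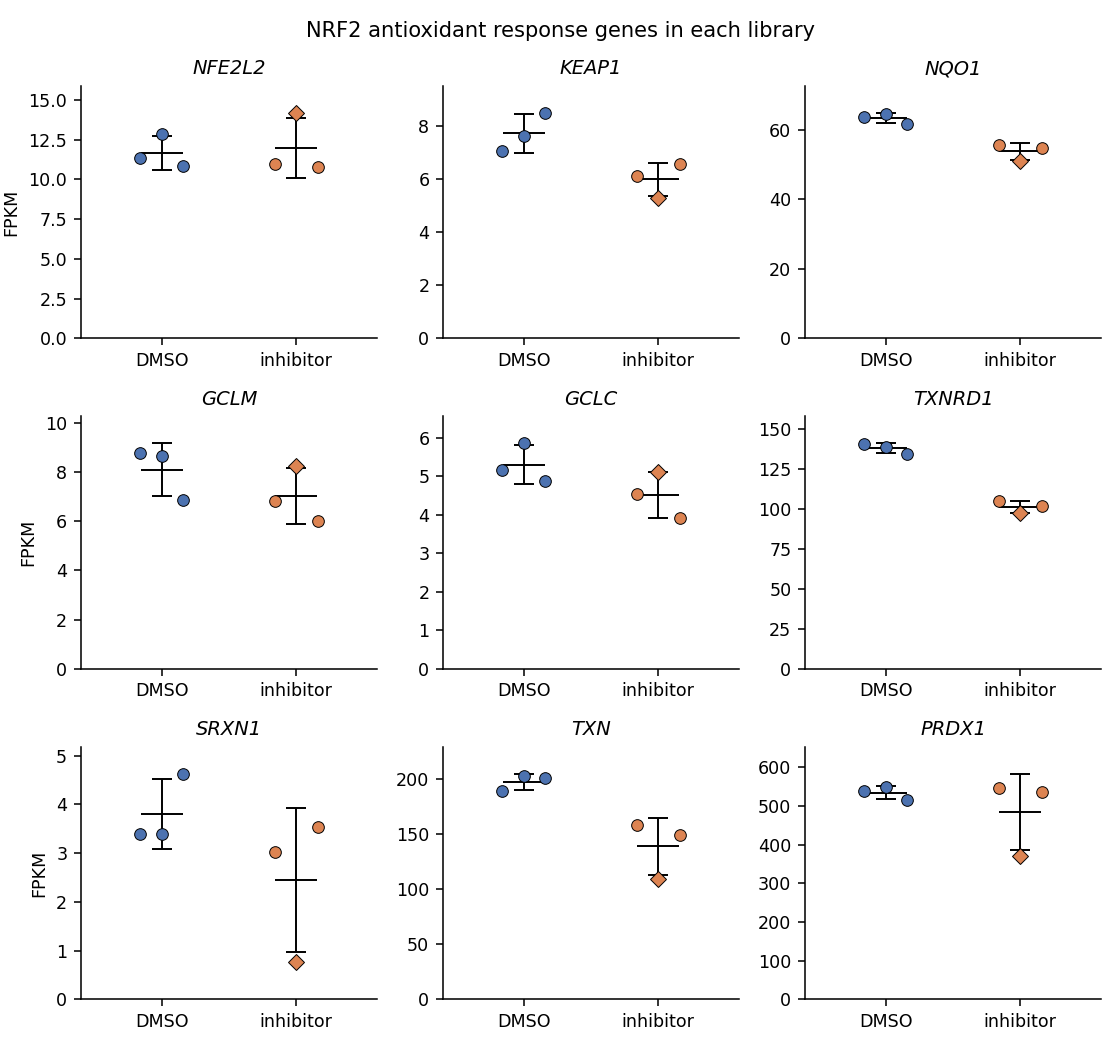
FPKM of each of the 9 genes in each library (points; blue DMSO, orange inhibitor, the diamond is inhibitor replicate 2), with the group mean and SD (bars, n = 3); every vertical axis starts at 0. The groups do not overlap for KEAP1, NQO1, TXNRD1 and TXN, and inhibitor replicate 2 is far below the other inhibitor libraries for SRXN1, TXN and PRDX1.

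In DMSO the levels ranged from 3.80 FPKM for SRXN1 to 534 FPKM for PRDX1. The order of the means was PRDX1, TXN, TXNRD1, NQO1, NFE2L2, GCLM, KEAP1, GCLC and SRXN1, and the means with the inhibitor had the same order. GCLM and KEAP1 overlapped in both groups (6.85 to 8.75 and 7.05 to 8.49 FPKM in DMSO), and no other neighbours in the order overlapped in either group. TXN, the reductant, stood 17-fold above NFE2L2 in DMSO, TXNRD1 11.8-fold, NQO1 5.43-fold and PRDX1 45.8-fold.

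The regulator and its inhibitor come first. NFE2L2 (ENSG00000116044, chromosome 2, 177227595 to 177392697, minus strand, hg38) measured 11.3, 12.8 and 10.8 FPKM in the DMSO libraries and, with the inhibitor, 11.0, 14.2 and 10.8 FPKM. The groups overlapped, and the highest value was that of inhibitor replicate 2. The log2 fold change was 0.03 (SE 0.14, limma adjusted p = 0.901), with an unadjusted 95% interval of −0.31 to 0.37. Its sign depended on the setting: it was −0.09 without inhibitor replicate 2, −0.02 without DMSO replicate 3 and −0.0022 with TPM scaling. NFE2L2 overlaps AGPS on the opposite strand, which ranged from 8.97 to 10.1 FPKM in DMSO and from 11.8 to 18.2 FPKM with the inhibitor; the sources used here do not say whether reads were counted by strand.

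KEAP1 (ENSG00000079999, chromosome 19, 10486120 to 10503741, minus strand) measured 7.05, 7.63 and 8.49 FPKM in the DMSO libraries and, with the inhibitor, 6.12, 5.30 and 6.55 FPKM. Every inhibitor library lay below every DMSO library, yet the difference of −0.32 (SE 0.12) did not pass the test (limma adjusted p = 0.121). Without inhibitor replicate 2 it was −0.25, and with trends on gene length and GC content removed −0.13. With 60.3% GC, KEAP1 was the most GC-rich of the 9.

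NQO1 encodes a quinone reductase and is among the most used readouts of NRF2 activity. It (ENSG00000181019, chromosome 16, 69706996 to 69726951, minus strand) measured 63.8, 64.6 and 61.7 FPKM in the DMSO libraries and, with the inhibitor, 55.6, 50.9 and 54.6 FPKM. The groups did not overlap, and the ratio of the means was 0.848. The log2 fold change was −0.23 (SE 0.10, limma adjusted p = 0.163). NQO1 was called lower without inhibitor replicate 2 (−0.20, SE 0.05, adjusted p = 0.0308), while its adjusted p over all 19 alternatives ran from 0.00691 to 0.711 and its estimate from −0.27 to −0.06, the last with quantile normalization.

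GCLC and GCLM encode the catalytic and the modifier subunit of glutamate-cysteine ligase, the rate-limiting enzyme of glutathione synthesis. GCLC (ENSG00000001084, chromosome 6, 53497341 to 53616970, minus strand) measured 5.16, 5.86 and 4.89 FPKM in the DMSO libraries and, with the inhibitor, 4.54, 5.11 and 3.92 FPKM. GCLM (ENSG00000023909, chromosome 1, 93885205 to 93909456, minus strand) measured 8.75, 8.66 and 6.85 FPKM in the DMSO libraries and, with the inhibitor, 6.80, 8.24 and 5.997 FPKM. In both genes inhibitor replicate 2 was the highest inhibitor library and lay within the DMSO range, and without it the groups no longer overlapped. The differences were −0.19 (SE 0.13, limma adjusted p = 0.327) for GCLC and −0.18 (SE 0.15, limma adjusted p = 0.429) for GCLM, and −0.27 and −0.29 without that library, where neither was called. The unadjusted 95% intervals with all libraries, −0.50 to 0.12 and −0.55 to 0.18, leave room for falls of that size.

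TXNRD1, the cytosolic selenoenzyme that reduces thioredoxin with NADPH, was the only one of the 9 called. It (ENSG00000198431, chromosome 12, 104215779 to 104350305, plus strand) measured 140, 139 and 134 FPKM in the DMSO libraries and, with the inhibitor, 105, 97.5 and 102 FPKM. The groups were well apart and inhibitor replicate 2 lay close to the others. The log2 fold change was −0.44 (SE 0.11, limma adjusted p = 0.0370), a ratio of means of 0.736. It was −0.41 without inhibitor replicate 2 (SE 0.05, adjusted p = 0.00265), the only 1 of the 6 fits leaving out a library in which the call held (without DMSO replicates 1, 2 and 3 the adjusted p was 0.172, 0.159 and 0.117, and without inhibitor replicates 1 and 3 0.0897 and 0.0923); the adjusted p over all 19 alternatives ran from 0.000277 to 0.172. The call was also lost with no filter, with TPM scaling, with quantile normalization (−0.27) and with the replicate block (adjusted p = 0.0787). Inside TXNRD1, on the same strand, lie the ribosomal protein pseudogene RPL18AP3, at 238 to 270 FPKM in DMSO and 135 to 259 FPKM with the inhibitor, and EID3, at 6.97 to 7.46 and 2.93 to 3.82 FPKM; their reads came to 15.2% and 0.97% of those of TXNRD1, and the sources used here do not say how reads were divided among them.

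TXN, the small cytosolic thioredoxin that reduces protein disulfides and peroxiredoxins, had a ratio of means of 0.703, or 0.778 without inhibitor replicate 2 (0.736 and 0.75 for TXNRD1). It (ENSG00000136810, chromosome 9, 110243811 to 110256640, minus strand) measured 190, 203 and 200.96 FPKM in the DMSO libraries and, with the inhibitor, 159, 109 and 149 FPKM. All inhibitor libraries lay below DMSO, replicate 2 furthest. With all libraries the difference of −0.52 (SE 0.17) did not pass the test (limma adjusted p = 0.0795), since the inhibitor libraries differed among themselves. TXN was called lower without inhibitor replicate 2 (−0.36, SE 0.06, adjusted p = 0.00612), with the length trend removed (−0.39, adjusted p = 0.0365) and with length and GC trends removed (−0.45, adjusted p = 0.0234); its adjusted p over all 19 alternatives ran from 0.00323 to 0.226. TXN is listed at 1142 bases, the shortest of the 9, shorter than all but 1.6% of tested protein-coding genes.

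PRDX1, an abundant peroxiredoxin that removes hydrogen peroxide and is recycled by thioredoxin, was the most abundant of the 9. It (ENSG00000117450, chromosome 1, 45511036 to 45523047, minus strand) measured 537, 548 and 516 FPKM in the DMSO libraries and, with the inhibitor, 546, 372 and 537 FPKM. Inhibitor replicates 1 and 3 lay inside the DMSO range and replicate 2 far below it. The log2 fold change was −0.16 (SE 0.19, limma adjusted p = 0.576; unadjusted 95% interval −0.61 to 0.29). It turned to 0.02 without inhibitor replicate 2 and to 0.05 with length and GC trends removed. PRDX1 is listed at 1522 bases, shorter than all but 3.9% of tested protein-coding genes.

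SRXN1 encodes sulfiredoxin, which repairs overoxidized peroxiredoxins, and was the least abundant of the 9. It (ENSG00000271303, chromosome 20, 646615 to 653370, minus strand) measured 3.39, 3.39 and 4.63 FPKM in the DMSO libraries and, with the inhibitor, 3.03, 0.775 and 3.55 FPKM. These rest on 134 to 185 reads per DMSO library, on 134 and 156 reads in inhibitor replicates 1 and 3 and on 28 reads in replicate 2. The groups overlapped through inhibitor replicate 3, which lay above DMSO replicates 1 and 2. The difference was −0.58 (SE 0.36, limma adjusted p = 0.2995) with all libraries and −0.16 (SE 0.14, adjusted p = 0.408) without replicate 2; over 18 alternatives the adjusted p ran from 0.175 to 0.547. Replicate 2 lay 1.27 log2 units below the mean of replicates 1 and 3, a deviation lower than that of all but 3.3% of tested protein-coding genes.

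**Figure D2:**
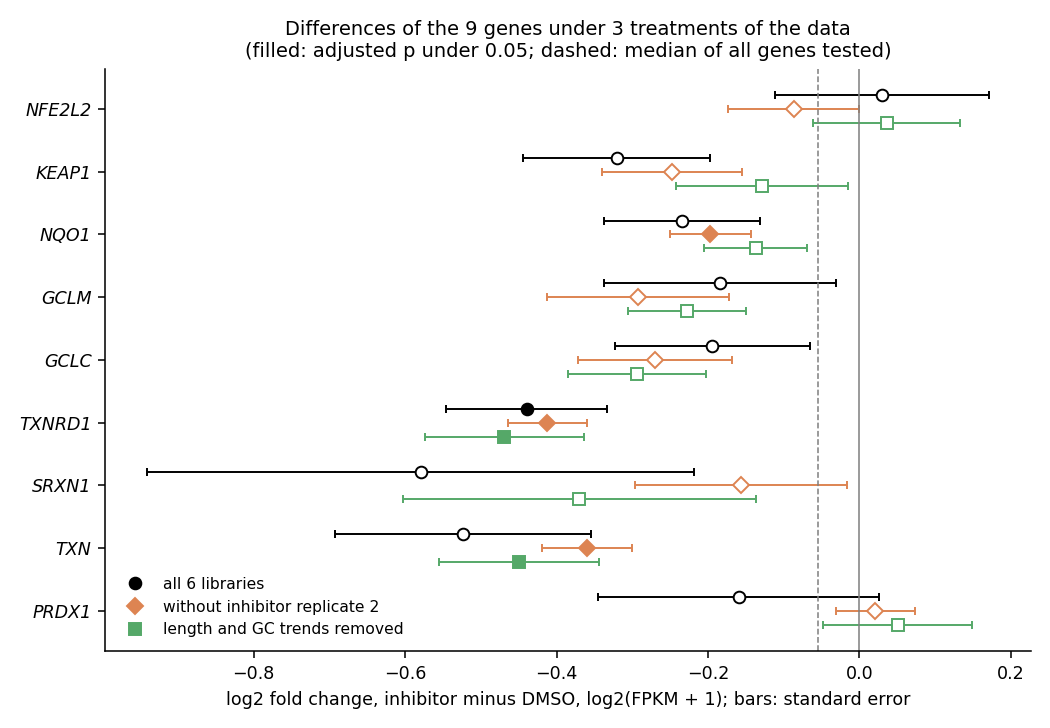
Log2 fold change (inhibitor minus DMSO, log2 of FPKM + 1) with its standard error for each of the 9 genes, with all 6 libraries (circles), without inhibitor replicate 2 (diamonds) and with trends on gene length and GC content removed (squares); filled symbols passed an adjusted p under 0.05, and the dashed line marks the median of all genes tested. TXNRD1 is filled in all 3, TXN in the last 2, NQO1 without inhibitor replicate 2 only, and PRDX1 crosses 0.

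Which library set the estimates differed among the 9 genes. Inhibitor replicate 2 lay above replicates 1 and 3 in NFE2L2, GCLM and GCLC, by 0.35, 0.32 and 0.23 log2 units, and all 3 are listed at 5420 bases or more. It lay below them by 0.49 to 1.27 log2 units in TXN, PRDX1 and SRXN1, listed at 1142, 1522 and 2698 bases. TXNRD1 (−0.08), NQO1 (−0.11) and KEAP1 (−0.22) were closer, and TXNRD1, listed at 6708 bases, lay below 0 although it is longer than NFE2L2 and GCLM. Without that library 3 of the 9 were called lower (NQO1, TXNRD1 and TXN) and none higher, against 23.1% and 17.5% of all genes tested, and 6 of the 9 had groups that did not overlap, all lower, against 36.4% of all genes. With the length trend removed 2 of the 9 were called, both lower (10.8% of all genes called lower), with length and GC trends removed also 2 (15.3%), and with estimated library weights 6 (31.6%). None was called with no filter (4.91% of all genes called in either direction), TPM scaling (15.6%), quantile normalization (15.4%), the replicate block (10.9%), or without DMSO replicate 1 (3.52%), 2 (3.76%) or 3 (4.26%) or inhibitor replicate 1 (8.04%) or 3 (9.57%). The part of the library's length and GC deviation in each value was tested only by removing those trends.

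**Figure D3:**
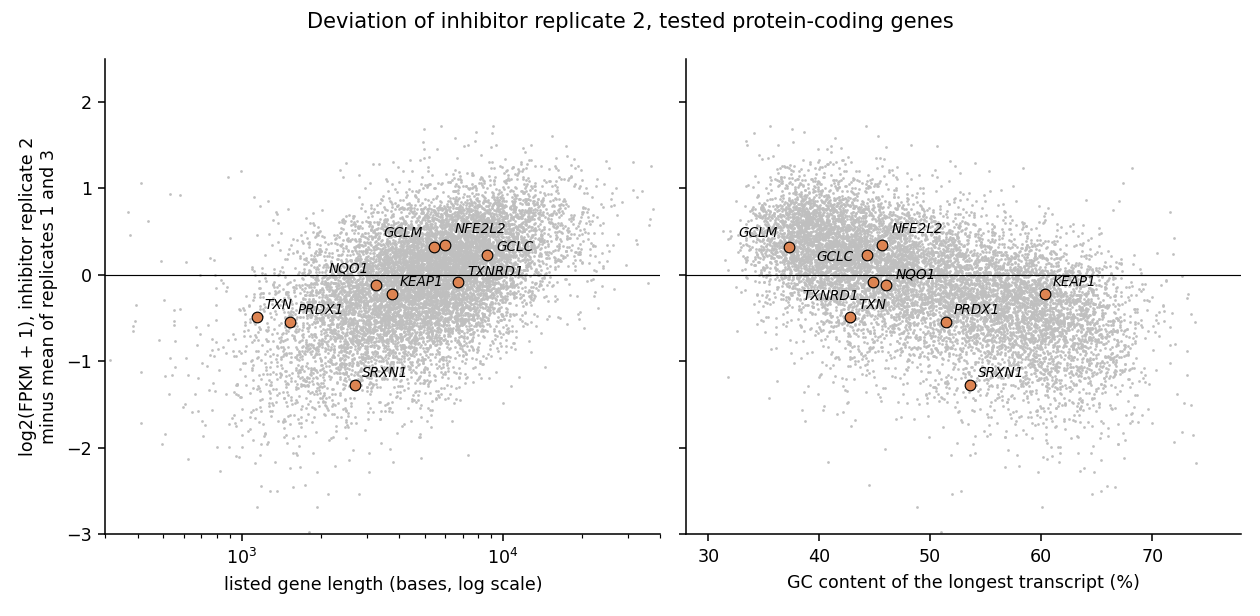
Deviation of inhibitor replicate 2 from the mean of inhibitor replicates 1 and 3, in log2(FPKM + 1), against listed gene length (left, log axis) and GC content of the longest transcript (right) for tested protein-coding genes (grey; 4 lie outside the axes), with the 9 genes in orange. TXN, PRDX1 and SRXN1 lie below 0, while NFE2L2, GCLM and GCLC, listed at 5420 bases or more, lie above it; TXNRD1, at 6708 bases, lies slightly below.

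Regulators and partners of NRF2 included larger falls. Of 20 listed, 19 were tested; 6 fell and none rose, with a median of −0.37 against −0.05 for all genes tested and beside the 10% of all genes called lower. SQSTM1, the autophagy receptor p62 that binds KEAP1, measured 110, 106 and 113 FPKM in the DMSO libraries and, with the inhibitor, 25.3, 23.9 and 26.5 FPKM. The groups were far apart and the inhibitor libraries close together (log2 fold change −2.08, SE 0.10, limma adjusted p = 0.000662), and the call held in all 19 alternatives.

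The small Maf proteins are the partners with which NRF2 binds DNA. MAFF measured 11.0, 10.3 and 11.3 FPKM in the DMSO libraries and, with the inhibitor, 3.75, 2.09 and 3.75 FPKM (−1.53, SE 0.19, limma adjusted p = 0.00581). MAFG measured 42.9, 39.0 and 40.8 FPKM in the DMSO libraries and, with the inhibitor, 19.2, 8.44 and 19.8 FPKM (−1.40, SE 0.31, limma adjusted p = 0.0282). In both, replicate 2 was the lowest library. The call of MAFF held in all 19 alternatives and that of MAFG in 15, with −1.03 for MAFG without inhibitor replicate 2. The calls of MAFG were lost with no filter (adjusted p = 0.0667) and without DMSO replicate 1, 2 or 3 (limma adjusted p = 0.109, 0.0963 and 0.102; estimates −1.37 to −1.44). The third, MAFK, overlapped between the groups (85.9 ± 11.8 FPKM in DMSO, SD, n = 3), and its difference was −0.28 with all libraries and 0.20 without inhibitor replicate 2.

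TRIM21, a ubiquitin ligase, went from 7.45 ± 0.459 to 5.25 ± 0.117 FPKM (SD, n = 3; −0.43, limma adjusted p = 0.0324), a call that held in 9 of 19 alternatives. It was lost with length and GC trends removed (−0.22), and of the fits leaving out a library only that without inhibitor replicate 2 kept it; the other 5 gave −0.39 to −0.47 with adjusted p from 0.0860 to 0.139. The call was also lost with the replicate block (adjusted p = 0.0737). DPP3, named after its values were seen, also fell (−0.48), and was likewise not called with length and GC trends removed. CUL3 (0.03), the scaffold of the ligase that KEAP1 serves, was not called. The repressor BACH1, which competes for the same elements, was at −0.17 and was called lower without inhibitor replicate 2 (−0.48). In that fit 10 of the 19 fell and none rose, against 23.1% and 17.5% of all genes tested.

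Other NRF2 targets went both ways. Of 41 listed, 33 were tested; 7 fell and 3 rose, with a median of −0.17, against 10% and 7.18% of all genes tested. Without inhibitor replicate 2 the counts were 13 lower and 7 higher, against 23.1% and 17.5% of all genes tested in that fit, and the median was −0.09. FTH1, the heavy chain of the iron store ferritin, measured 1894, 1713 and 1767 FPKM in the DMSO libraries and, with the inhibitor, 639.5, 559.7 and 671 FPKM (−1.52, SE 0.15, limma adjusted p = 0.00301). The call was lost with no filter (adjusted p = 0.0548) and held in the other 18 alternatives. Since FTH1 has many processed pseudogenes, the assignment of its reads is uncertain.

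OSGIN1, an oxidative stress-induced growth inhibitor, went from 5.77 ± 0.464 to 2.14 ± 0.553 FPKM (SD, n = 3; −1.12, limma adjusted p = 0.00758). The export pump ABCC3 went from 6.35 ± 0.831 to 3.07 ± 0.368 FPKM (SD, n = 3; −0.85, limma adjusted p = 0.0112), a call lost without DMSO replicate 1, 2 or 3 (−0.90, −0.89 and −0.76, each at an adjusted p of 0.0541 to 0.0545). The others that fell, named after their values were seen, were the aldose reductase AKR1B1 (−1.45), UGDH (−0.58), the heme transporter SLC48A1 (−0.55) and GSR (−0.54), which reduces oxidized glutathione.

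Among the targets that rose, named after their values were seen, was the aldehyde dehydrogenase ALDH3A1. It measured 0.849, 0.662 and 0.862 FPKM in the DMSO libraries and, with the inhibitor, 3.89, 2.15 and 3.51 FPKM (1.20, SE 0.19, limma adjusted p = 0.0116), with no overlap. ALDH3A1 met the filter of 1 FPKM in 3 libraries only through the inhibitor libraries, where it is high. Its call, counted among the 3 higher calls of this list, therefore carries that selection. PIR, encoding pirin, rose as well (0.65). PGD (0.08) and TKT (0.03), enzymes of the pentose phosphate pathway, were not called, and TALDO1 (0.27) was called higher without inhibitor replicate 2.

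HMOX1 and SLC7A11 are commonly read as NRF2 targets. HMOX1, heme oxygenase 1, measured 16.3, 14.6 and 15.3 FPKM in the DMSO libraries and, with the inhibitor, 12.0, 7.15 and 12.6 FPKM. SLC7A11, the cystine importer that feeds glutathione synthesis, measured 11.1, 12.0 and 10.5 FPKM in the DMSO libraries and, with the inhibitor, 4.35, 9.09 and 4.15 FPKM. Both had groups that did not overlap, and replicate 2 was the lowest inhibitor library for HMOX1 and the highest for SLC7A11. Neither was called with all libraries (HMOX1 −0.54, limma adjusted p = 0.125; SLC7A11 −0.90, limma adjusted p = 0.0645), and both were called lower without replicate 2 (−0.30 and −1.21).

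**Figure D4:**
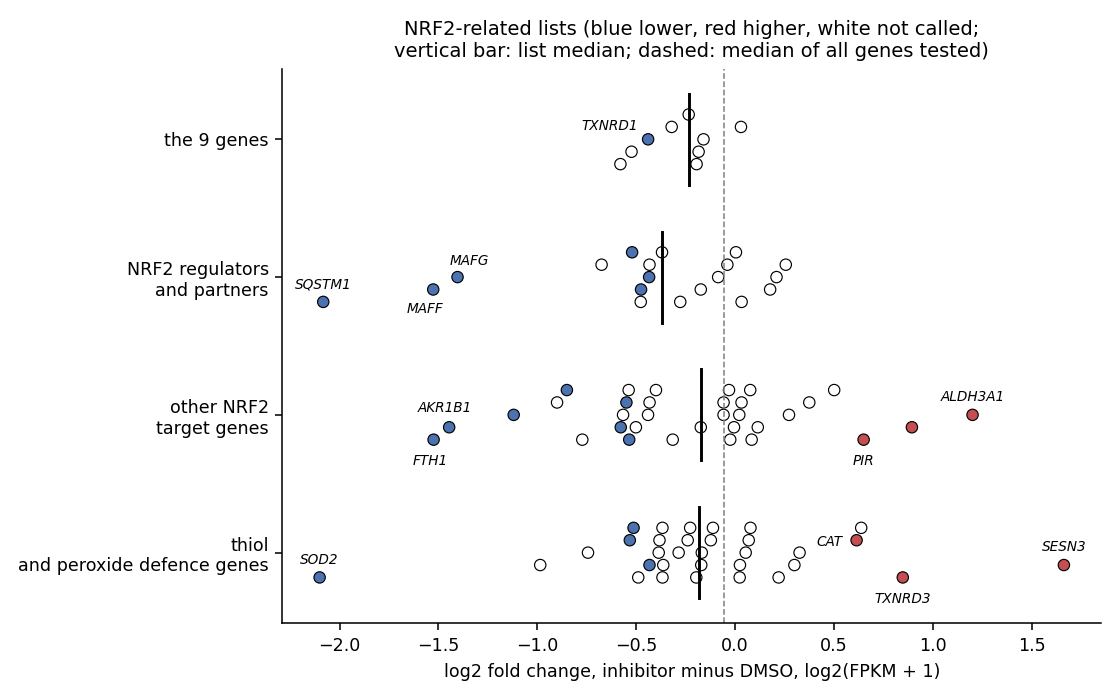
Log2 fold changes (inhibitor minus DMSO, log2 of FPKM + 1) of the tested genes of each list: the 9 genes, NRF2 regulators and partners, other NRF2 targets, and thiol and peroxide defence genes; blue passed the test as lower, red as higher, white did not pass, vertical bars are list medians and the dashed line is the median of all genes tested (−0.05). The medians are −0.23, −0.37, −0.17 and −0.18. The 9 genes span a narrower range than the other lists, which hold more tested genes (19, 33 and 32).

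Thiol and peroxide defence genes outside these lists also went both ways. Of 36 listed, 32 were tested; 4 fell and 3 rose, with a median of −0.18, against 10% and 7.18% of all genes tested. Without inhibitor replicate 2 the counts were 9 lower and 7 higher, again beside 23.1% and 17.5% of all genes, and the median was −0.01. SOD2, the mitochondrial superoxide dismutase, measured 43.3, 43.4 and 36.4 FPKM in the DMSO libraries and, with the inhibitor, 9.23, 9.56 and 7.63 FPKM (−2.10, SE 0.13, limma adjusted p = 0.00101). The call of SOD2 held in all 19 alternatives, whereas SOD1, the cytosolic enzyme, was at −0.38 and not called (adjusted p = 0.191).

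SESN3, a sestrin, rose from 5.22, 5.12 and 4.20 FPKM in DMSO to 16.0, 23.1 and 14.4 FPKM with the inhibitor (1.66, SE 0.19, limma adjusted p = 0.00479). TXNRD3, a thioredoxin reductase related to TXNRD1, rose from 2.26 ± 0.102 to 4.90 ± 0.703 FPKM (SD, n = 3; 0.85, limma adjusted p = 0.00972), and CAT, catalase, from 8.40 ± 0.337 to 13.5 ± 2.54 FPKM (SD, n = 3; 0.61, limma adjusted p = 0.0346). The call of TXNRD3 was lost without DMSO replicate 1, 2 or 3 (0.83 to 0.87, adjusted p from 0.0534 to 0.0580). That of CAT held only without inhibitor replicate 2 among the fits leaving out a library (0.48); the other 5 gave 0.60 to 0.69 with adjusted p from 0.0584 to 0.138, and with the replicate block the adjusted p was 0.0529. TXNRD2 (−0.17), the mitochondrial reductase, was not called. The peroxiredoxins differed: PRDX4, of the endoplasmic reticulum, fell (−0.53, limma adjusted p = 0.0450), and PRDX6 (−0.24) and PRDX2 (0.64) were not called. Without inhibitor replicate 2, PRDX6 was called lower (−0.27) and PRDX2 higher (0.93). GLRX (−0.51) and MSRA (−0.43) also fell; PRDX4, GLRX and MSRA were named after their values were seen. These 3 were close to the threshold (limma adjusted p = 0.0450, 0.04998 and 0.0494): SOD2 alone of the list was called lower with no filter, with the replicate block and without DMSO replicate 1, 2 or 3 or inhibitor replicate 1 or 3, and GLRX was not called with length and GC trends removed.

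The genes most like NFE2L2 in pattern were found by Pearson correlation of log2(FPKM + 1) over the 6 libraries, as a description. ATF2 (r = 0.995), SGTB (r = 0.991) and TSHZ1 (r = 0.989) came first; in each the highest library was inhibitor replicate 2 and the next DMSO replicate 2, as in NFE2L2. For NQO1 they were the metallothionein pseudogene MT2P1 (r = 0.999), DNAJC12 (r = 0.998) and PSEN2 (r = 0.998), all called lower (−3.26, −0.67 and −0.61). Without DMSO replicate 1, 2 or 3 DNAJC12 (adjusted p from 0.0617 to 0.0964) and PSEN2 (0.0853 to 0.106) were not called, nor was PSEN2 without inhibitor replicate 1 (0.0506) or 3 (0.0557) or with the replicate block (0.0609). These points share libraries and groups, and reads of MT2P1 cannot be told apart with certainty from those of its close relatives.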

How the data were processed

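The authors deposited 1 table of FPKM values for 58735 genes and 6 libraries, with gene lengths in bases. Per the submitters' processing notes the genome build was hg38, and per the labels' protocols the library kit was directional. The sources used here name no aligner, counter or annotation release. Multiplied by length and 1 factor per library, 100% of the values above 0 came out within 0.01 of whole reads, and the factors equal median-of-ratios size factors of those reads. The recovered reads were tested with limma-voom as an alternative, which called 2554 genes. Coordinates of all 58735 genes equal those of GENCODE 29, the source of GC content (99.9% of tested genes). Of the rows named SOD2, the one with the higher mean was used.

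The 13578 genes that reached 1 FPKM in 3 libraries or more were fitted on log2(FPKM + 1) with limma 3.58.1 in R 4.3.3 (mean-variance trend, two-sided, no block), Benjamini-Hochberg over all of them, threshold 0.05; the scale understates changes of low genes. The test was tried on simulated data. Python 3.11.15, numpy 2.4.6, pandas 2.3.3 and matplotlib 3.10.9 did the rest. The alternatives were other pseudocounts, filters and scalings, a length trend removed (loess, span 0.3), other limma priors, a replicate block, limma-voom on recovered reads and each library left out; length with GC trends and estimated library weights were chosen after seeing the data. The members and lists were chosen with earlier results of these data known. Named were the 9 genes, HMOX1, SLC7A11, PRMT5, up to 4 called genes with the smallest adjusted p per list, and the 3 genes most correlated with NFE2L2 and with NQO1; some genes of the lists are counted but not reported here by name; others are said to be named after their values were seen, or are given as list members that place a named gene. Replicates of a group differed beyond sampling noise. The chi-square per degree of freedom was 97.0 and 101 for the pairs with inhibitor replicate 2 and 2.48 to 7.41 for the others. Each library counted as 1 in the fit, although separate cultures are not stated.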

Additional observations from a re-analysis of the deposited data

How the results depend on the processing

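The estimates of KEAP1, NQO1, GCLM, GCLC, TXNRD1 and TXN stayed below 0 in all 19 alternatives and that of SRXN1 in all 18 it could be fitted in; SRXN1, TXNRD3, SGTB and TSHZ1 had no value with the filter at 5 FPKM. With each library left out in turn, the genes called over all genes ran from 478 (without DMSO replicate 1) to 5513 (without inhibitor replicate 2), the 9 genes from 0 to 3, the regulators from 2 to 10, the other targets from 2 to 20 and the thiol genes from 2 to 16, each highest without inhibitor replicate 2. Against 2339 genes called as reported, 1533 were called with no filter, 1505 with the filter at 5 FPKM, 1478 with the replicate block, 3987 with length and GC trends removed and 7697 with estimated library weights, which gave inhibitor replicate 2 a weight of 0.0624 against 0.721 to 4.79. Of the 9 genes, 0 were called with no filter, TPM scaling, quantile normalization and the replicate block, 2 with the length trend or both trends removed and 6 with library weights (all lower, and beside 31.6% of all genes called lower there). Of the regulators, 2 were called with no filter, 3 with quantile normalization, 3 with the replicate block and 11 with library weights. Of the other targets, 17 were called with both trends removed and 25 with library weights; of the thiol genes, 3 with no filter, 3 with the replicate block, 12 with both trends removed and 22 with library weights. The cause was not tested.

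Signs turned as follows among the 9 genes and the genes named by rule. NFE2L2 was at −0.0022 with TPM scaling and −0.083 with library weights, and PRDX1 at 0.0087 with the length trend removed, 0.051 with both trends removed and 0.013 with library weights. With both trends removed ATF2 was at −0.021 and SGTB at −0.0089, and with library weights ATF2, SGTB and TSHZ1 were at −0.149, −0.084 and −0.058. With libraries left out, NFE2L2 ran from −0.087 to 0.096, PRDX1 from −0.256 to 0.021, ATF2 from −0.154 to 0.144, SGTB from −0.122 to 0.138 and TSHZ1 from −0.053 to 0.158, the negative end (for PRDX1 the positive end) being that without inhibitor replicate 2. Whether the replicate numbers pair the libraries stayed undecided. Deviations of same-numbered libraries correlated at −0.018, 0.157 and 0.248, and those of differently numbered libraries at −0.209 to 0.092. The replicate block took the calls from TXNRD1, TRIM21, CAT and PSEN2, and from no other gene named by rule. Among the 9 genes depth limits SRXN1 most, at 28 reads in inhibitor replicate 2. MT2P1, named by rule, was at 0 FPKM in that library.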
